A study of Mus musculus with 18 samples.

Results

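The genes described here are 10 transcripts of the unfolded protein response and the integrated stress response: Hspa5, Hsp90b1, Xbp1 and Herpud1, which report on the endoplasmic reticulum (ER), and Atf4, Ddit3, Trib3, Chac1, Asns and Ppp1r15a, which lie downstream of translational stress signalling. They were chosen by name, and each was found once among the 24062 genes of the count tables. All 10 passed the filter on low counts that kept 12140 genes. RNA was measured in 18 samples of NIH3T3 cells, a mouse embryonic fibroblast line, as read counts per gene. The samples made 6 groups of 3: the parental line (called WT) or a derived line that carries mouse TRIM21 fused to the red fluorescent protein mCherry (called TRIM21), each given PBS, bovine serum albumin (BSA) or IgG antibody. Protein was brought into the cells by electroporation with 2 pulses of 20 ms at 1400 V, using 7.5 µg of BSA or IgG, and cells were lysed 16 h later. The PBS groups were electroporated too, so no group compared here was free of that procedure. TRIM21 is a cytosolic antibody receptor and ubiquitin ligase. The comparisons set the TRIM21 line beside its parent, the treatments beside each other, and the treatment differences of the lines beside each other. With a single line of each kind, an effect of the fusion cannot be told apart from other differences between the lines. The promoter that drives the fusion, and whether the line is a single clone, are not given in the sources used here.

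In the unfolded protein response, 3 sensors in the ER membrane (IRE1, PERK and ATF6) react to unfolded protein in the ER lumen. ATF6 and the spliced form of XBP1 drive genes for chaperones and for ER-associated degradation, while PERK phosphorylates the translation factor eIF2α. Other kinases, among them GCN2 on amino acid shortage, converge on the same phosphorylation in the integrated stress response, which slows general translation but favours translation of ATF4. ATF4 then drives genes of amino acid supply and the transcription factor CHOP, the product of Ddit3. Fibroblasts secrete large amounts of collagen and other matrix proteins, and so hold high levels of ER chaperones without added stress.

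The promoters of the members carried different motifs, and the 5 sequences printed here are those with a match before the start site, because the members with each kind of motif are compared below. Each is the 250 bases upstream of the RefSeq start in GRCm38.p6, 5′ to 3′ on the gene's strand, with motif matches in capitals. All 10 members were matched in the RefSeq promoter table, whose windows run from 250 bases before to 50 after the start.

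Hspa5 (chr2:34771840-34772089, + strand): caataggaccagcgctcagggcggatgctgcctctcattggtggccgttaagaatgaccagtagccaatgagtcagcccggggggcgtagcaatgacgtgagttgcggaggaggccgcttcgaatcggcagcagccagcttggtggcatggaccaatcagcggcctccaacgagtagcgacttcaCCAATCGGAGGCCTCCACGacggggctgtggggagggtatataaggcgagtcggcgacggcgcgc

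Hsp90b1 (chr10:86705445-86705694, - strand): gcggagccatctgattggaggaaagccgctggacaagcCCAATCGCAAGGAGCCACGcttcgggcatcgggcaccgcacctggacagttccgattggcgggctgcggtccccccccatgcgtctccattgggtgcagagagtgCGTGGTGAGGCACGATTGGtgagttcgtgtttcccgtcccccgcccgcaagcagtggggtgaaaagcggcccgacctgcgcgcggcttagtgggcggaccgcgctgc

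Herpud1 (chr8:94386179-94386428, + strand): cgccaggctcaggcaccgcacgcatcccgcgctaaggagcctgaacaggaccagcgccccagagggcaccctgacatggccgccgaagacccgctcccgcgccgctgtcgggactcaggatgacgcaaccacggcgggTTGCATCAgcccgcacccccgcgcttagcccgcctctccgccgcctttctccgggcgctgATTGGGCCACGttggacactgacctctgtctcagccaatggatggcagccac

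Chac1 (chr2:119350992-119351241, + strand): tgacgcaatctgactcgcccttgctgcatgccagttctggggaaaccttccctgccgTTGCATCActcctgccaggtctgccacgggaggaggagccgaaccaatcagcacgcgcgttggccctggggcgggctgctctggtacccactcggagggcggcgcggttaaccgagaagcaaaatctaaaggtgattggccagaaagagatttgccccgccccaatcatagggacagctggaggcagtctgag

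Asns (chr6:7693210-7693459, - strand): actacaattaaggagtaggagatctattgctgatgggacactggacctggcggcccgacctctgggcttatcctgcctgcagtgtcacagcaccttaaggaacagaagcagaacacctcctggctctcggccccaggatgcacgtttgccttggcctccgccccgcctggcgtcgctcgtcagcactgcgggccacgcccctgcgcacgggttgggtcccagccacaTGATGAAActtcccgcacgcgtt

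In Hspa5 and Hsp90b1 the capitals mark the ER stress response element (ERSE, searched as CCAAT, 9 bases of any kind and CCACG), the element bound by ATF6 and XBP1. Its match in Hspa5 lay at bases -65 to -47, and Hsp90b1 held a match at -212 to -194 and another, on the opposite strand, at -107 to -89. Among 32851 mouse promoters, 0.119% held this motif on either strand. The capitals nearer to the start in Herpud1, at -52 to -42, mark ERSE-II (ATTGG, any base and CCACG), which 0.0365% of promoters held. In Chac1 (-193 to -186), Asns (-23 to -16) and the distal match in Herpud1 (-112 to -105), the capitals mark the C/EBP-ATF element (TGATGNAA or its reverse complement), the kind of site that ATF4 binds with C/EBP partners. That motif was held by 3.97% of promoters. Trib3 held the same motif 15 to 22 bases after its start. Herpud1 was thus the member with a match to both kinds of element in its window. The unfolded protein response element TGACGTGG was in 0.676% of promoters and in 0 of the 10 members, and Xbp1, Atf4, Ddit3 and Ppp1r15a held no match to any of these 4 motifs in the window. These are matches of letters, searched on both strands, and not measured binding.

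Total gene counts ranged from 19509017 to 29766433 per sample. Counts of Trim21 were 19900 to 32225 in the TRIM21 line and 142 to 223 in the WT line, which matched the labels. Trim21 RNA was thus low in the WT line, but not absent. The 10 fibroblast markers were all expressed, the 5 epithelial markers summed to at most 0.603 CPM (counts per 1e+06 gene counts; CPM of the members below are also scaled by TMM, while marker sums are not), and 4 of 4 muscle markers were at 0 in every sample. The 5 leukocyte markers summed to 4.84 to 8.53 CPM, led by Cd68 (at most 8.48 CPM), with Cd3e at 0 in every sample, and the 4 endothelial markers summed to 0.496 to 2.56 CPM. One library, TRIM21 with PBS number 11, stood apart from the rest: its median distance to the other samples was 64.4 on the log2 CPM scale, against 38.9 to 48.9 for the other 17. Its summed fibroblast markers were 19298 CPM, against 28723 to 39050 CPM in the other samples. Members called between the lines are given with and without this library. Samples carry the numbers 10, 11 and 14, once in each group. Nothing in the labels says that same-group samples were separate cultures, so p-values measure the spread between these samples, which may be technical.

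The members spanned a wide range of expression. Per kilobase of exon, the mean level over 18 samples was highest for Hsp90b1, the ER chaperone GRP94, at 411 ± 55.6 CPM per kb (SD, n = 18), and next for Atf4 at 315 ± 36.8. Hspa5, which encodes the chief ER chaperone BiP, followed at 204 ± 20.2 CPM per kb, and Asns, which encodes asparagine synthetase, at 133 ± 25.9. Herpud1, an ER membrane protein of ER-associated degradation, stood at 49.7 ± 5.17 CPM per kb and Xbp1 at 40.7 ± 7.83. The 4 lowest were Trib3 (21.6 ± 5.24), Ddit3 (19.9 ± 4.67), Chac1 (16.5 ± 4.43) and Ppp1r15a (9.29 ± 1.53 CPM per kb). All 10 lay above the median of the tested genes with a known length, 6.77 CPM per kb. Sample values did not overlap between Atf4 and Hspa5, nor between Asns and Herpud1, whereas every other pair of neighbours in this order overlapped.

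**Figure D1:**
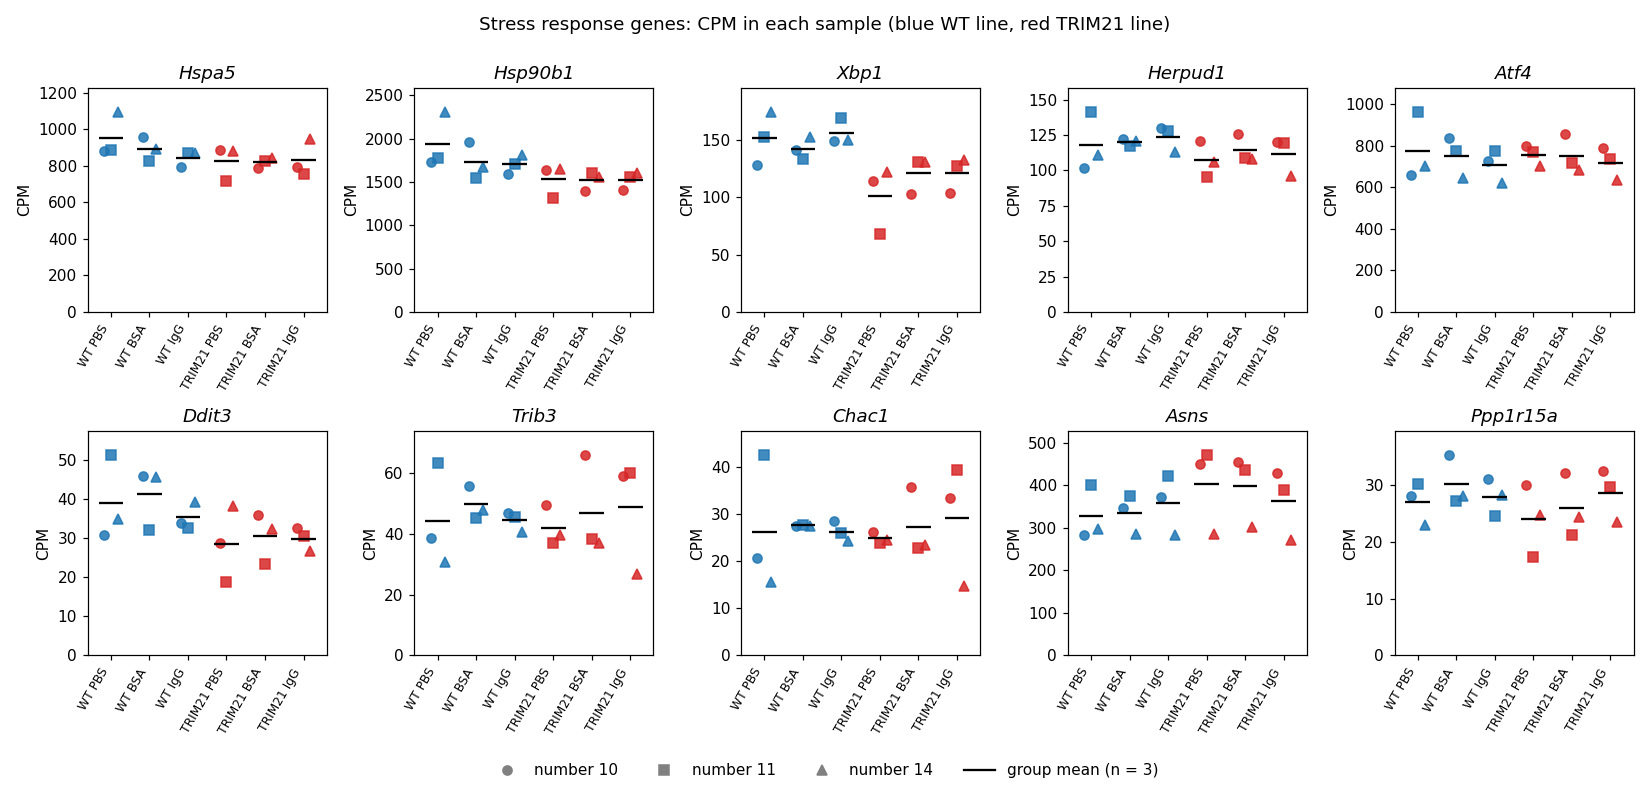
CPM of each of the 10 genes (y axis, linear from 0) in each of the 18 samples, by line and treatment (x axis). Points are samples, their shapes the numbers 10, 11 and 14, and bars are means of 3. Xbp1 sits at 67.8 to 132 CPM in the TRIM21 line and at 128 to 175 CPM in the WT line, while treatments within a line overlap.

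Xbp1 was the only one of the 10 genes that differed between the lines by the test used here, and it was lower in the TRIM21 line. Xbp1 (chr11:5520659-5525893, + strand, GRCm38) encodes the transcription factor that becomes active when IRE1 removes a short intron from its mRNA; counts per gene do not separate the spliced from the unspliced form. In the WT line, Xbp1 measured 128, 152 and 175 CPM with PBS, 141, 133 and 152 CPM with BSA, and 149, 169 and 150 CPM with IgG, in the order of the numbers 10, 11 and 14. In the TRIM21 line it measured 114, 67.8 and 122 CPM with PBS, 103, 131 and 131 CPM with BSA, and 103, 127 and 132 CPM with IgG. The value was lower in the TRIM21 line in 9 of 9 pairs with the same treatment and number. The share of all tested genes lower in every such pair is not given. The labels do not say that the numbers pair samples. For Xbp1, 6 of 9 TRIM21 samples lay below the lowest WT sample, though the lines overlapped as a whole. The log2 fold change of the TRIM21 line over the WT line, averaged over treatments, was -0.39 (SE 0.10, 0.762-fold), with an adjusted p of 0.0238 in edgeR's quasi-likelihood test. The summed fibroblast markers were also lower in the TRIM21 line in 9 of 9 such pairs, at 19298 to 34320 CPM against 29024 to 39050 CPM, and their part in the differences of Xbp1 and the other ER genes was not tested. In bulk RNA, fewer cells that express a gene and less RNA of it per cell cannot be told apart.

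The Xbp1 difference did not rest on the library that stood apart, the lowest of all at 67.8 CPM. Without it, the log2 fold change was -0.33 and the adjusted p 0.0135 in edgeR's test. Within each number the lines did not overlap for Xbp1. The differences of mean log2 values were -0.38, -0.54 and -0.31 for numbers 10, 11 and 14. Each number holds 3 samples of either line, and a lack of overlap within a number was not peculiar to Xbp1. It was also seen for Hsp90b1 and Herpud1 in number 14, Atf4 and Ddit3 in number 11, and Asns in number 10. Its share over all tested genes is not given. The Xbp1 call was lost when TRIM21 IgG number 10 (adjusted p = 0.0592) or WT BSA number 14 (adjusted p = 0.0548) was left out. It was kept in the other 16 of 18 such edgeR fits. Over all genes, edgeR called 6.18% in this comparison (750 of 12140), with 4.79% lower and 1.39% higher in the TRIM21 line, so that 1 of 10 members called is near that background. Samples of the lines did not overlap for 0 of 10 members and for 1.91% of all tested genes.

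The other ER genes had fold changes below 0 between the lines, without passing the threshold. Hsp90b1 (chr10:86690209-86705509, - strand) measured 1726, 1776 and 2312 CPM with PBS, 1967, 1546 and 1669 CPM with BSA, and 1597, 1713 and 1809 CPM with IgG in the WT line. In the TRIM21 line it measured 1636, 1316 and 1645 CPM, 1401, 1603 and 1559 CPM, and 1408, 1560 and 1599 CPM in the same order. The TRIM21 sample was lower in 8 of 9 pairs, and the lines overlapped. The Hsp90b1 log2 fold change was -0.23 (SE 0.08), with an edgeR adjusted p of 0.0817. This gene sits near the threshold: its adjusted p was 0.0367 in DESeq2 and 0.0396 in edgeR with the number as a block. Of 18 edgeR fits without 1 sample, Hsp90b1 passed in 1, that without TRIM21 PBS number 14 (adjusted p = 0.0488). In the other 17 it did not pass, with an edgeR adjusted p of up to 0.169. Hspa5 (chr2:34771970-34777547, + strand) ranged from 793 to 1097 CPM in the WT line and from 719 to 945 CPM in the TRIM21 line, a log2 fold change of -0.12 (edgeR adjusted p = 0.333), and was lower in 5 of 9 pairs. Herpud1 (chr8:94386438-94395377, + strand) ranged from 102 to 142 CPM and from 95.6 to 126 CPM, again -0.12 on the log2 scale (edgeR adjusted p = 0.355). Herpud1 was lower in 7 of 9 pairs, and within number 10 its mean log2 difference was 0.06.

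Among the integrated stress response genes, Ddit3 had the largest difference between the lines, and it did not pass. Ddit3 (chr10:127290774-127296288, + strand) encodes CHOP, the transcription factor linked to death of stressed cells. In the WT line it measured 30.7, 51.2 and 34.8 CPM with PBS, 45.9, 31.96 and 45.6 CPM with BSA, and 34.0, 32.6 and 39.3 CPM with IgG. In the TRIM21 line it measured 28.6, 18.7 and 38.1 CPM, 35.8, 23.3 and 32.2 CPM, and 32.5, 30.4 and 26.6 CPM. Ddit3 was lower in 8 of 9 pairs, with overlap between the lines. Its log2 fold change was -0.37 (SE 0.13), with an edgeR adjusted p of 0.108. Of 18 edgeR fits without 1 sample, Ddit3 passed in 1, that without TRIM21 PBS number 14 (adjusted p = 0.0245). In the other 17 it did not pass, with an edgeR adjusted p of up to 0.209. Exons of Ddit3 overlap Mars and Gm4189 on the opposite strand in GENCODE, exons of Hsp90b1 overlap 1810014B01Rik and those of Ppp1r15a overlap Tulp2. On the same strand, exons of Hsp90b1 overlap Gm15344 and Gm25745, and Ddit3 overlaps a second entry of the same name. Whether strand was used in counting, and which annotation, is not given in the sources used here. Reads over several genes lie outside the gene counts, so counts of Ddit3, Hsp90b1 and Ppp1r15a may lack reads in shared exons. How many were lost, or came from a neighbour absent from the annotation used, is not known.

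Asns was the member with the largest positive difference. Asns (chr6:7675169-7693254, - strand) had a median of 346 CPM in the WT line (282 to 423, n = 9) and 429 CPM in the TRIM21 line (272 to 471, n = 9). Its log2 fold change was 0.19 (SE 0.13, edgeR adjusted p = 0.411), and the TRIM21 sample was higher in 6 of 9 pairs. The difference was uneven between the numbers, at 0.42 on the log2 scale in number 10, 0.11 in number 11 and -0.01 in number 14. Atf4 (chr15:80255184-80257541, + strand) had means of 744 ± 107 CPM in WT and 742 ± 67.1 CPM in TRIM21 (SD, n = 9), and a 95% interval for the log2 fold change of -0.18 to 0.17. Trib3 (chr2:152337422-152344032, - strand), a pseudokinase that inhibits AKT and is induced by ATF4 and CHOP, had means of 46.1 ± 9.43 and 45.9 ± 13.2 CPM (SD, n = 9). Chac1 (chr2:119351229-119354381, + strand), an enzyme that degrades glutathione, had means of 26.8 ± 7.26 and 27.2 ± 7.68 CPM. Ppp1r15a (chr7:45522916-45526268, - strand) encodes GADD34, which directs a phosphatase to eIF2α and so closes the feedback loop, and it had means of 28.4 ± 3.59 and 26.2 ± 5.22 CPM. For Atf4, Trib3, Chac1 and Ppp1r15a the edgeR adjusted p between the lines ranged from 0.565 to 0.987. The median log2 fold change of the 10 members was -0.12, beside 0.01 over all tested genes.

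**Figure D2:**
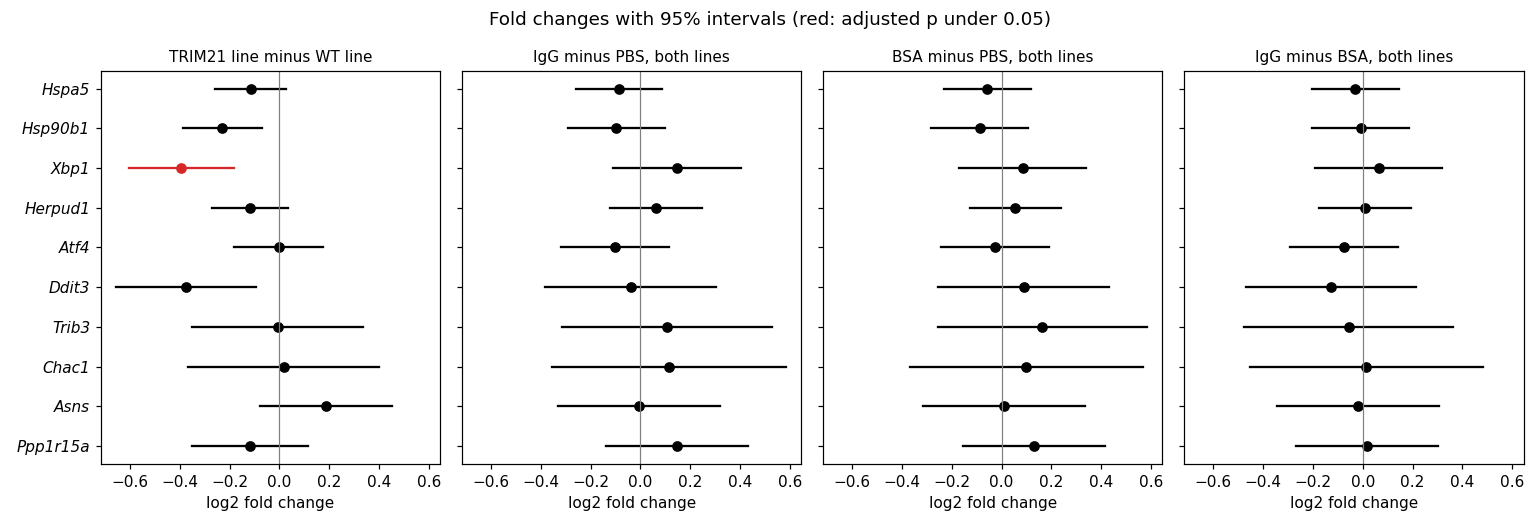
Log2 fold changes (x axis) of the 10 genes (y axis) with 95% intervals, for the TRIM21 line over the WT line and for the 3 treatment differences averaged over both lines, from edgeR's fit to 18 samples. The line interval of Xbp1 (red, adjusted p = 0.0238) runs from -0.60 to -0.18, and every treatment interval spans 0.

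No change with treatment was detected in any member. The comparisons with PBS share the PBS samples, and those with BSA share the BSA samples, so they are not independent of each other. Averaged over both lines, log2 fold changes of IgG over PBS ran from -0.10 (Atf4) to 0.15 (Xbp1), with the smallest edgeR adjusted p at 0.855. For IgG over BSA they ran from -0.13 (Ddit3) to 0.06 (Xbp1), and for BSA over PBS from -0.09 (Hsp90b1) to 0.16 (Trib3). Each of these values, over all 10 members, was smaller than that gene's SD between samples of a group. In each of these 3 comparisons edgeR called 0 of 10 members and 0 genes in all (percent called 0), and 0 members were at an unadjusted p under 0.05, beside 670, 125 and 118 of all genes. DESeq2 also called 0 members, with 5 genes of 12140 for IgG over PBS and 0 for the other 2. The intervals limit what could have been missed: for all 10 members the 95% interval of each of these 3 differences lay within 1.5-fold in either direction.

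Antibody in cells that carry the TRIM21 fusion is the combination the design centres on, and there too the members did not pass the test. With IgG, Trib3 measured 59.0, 60.04 and 26.9 CPM in the TRIM21 line, against 49.4, 37.0 and 39.8 CPM with PBS and 65.8, 38.1 and 37.0 CPM with BSA. The IgG samples lay above and below the PBS samples, and overlapped those with BSA. Chac1 was at 33.6, 39.5 and 14.8 CPM with IgG, 26.3, 23.9 and 24.5 CPM with PBS and 35.7, 22.9 and 23.4 CPM with BSA. Its log2 fold change of IgG over PBS was 0.23 (SE 0.32, 95% interval -0.43 to 0.89, edgeR adjusted p = 0.822), the widest interval of any member. The largest change of IgG over PBS in the TRIM21 line was that of Xbp1, at 0.25 (SE 0.17, edgeR adjusted p = 0.725), and it was 0.05 without the PBS library that stood apart.

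In the WT line, Hspa5 measured 793, 871 and 870 CPM with IgG and 883, 886 and 1097 CPM with PBS, a log2 fold change of -0.18 (SE 0.12, edgeR adjusted p = 1). Within either line and for each of the 3 treatment differences, edgeR called 0 of 10 members and 0 genes (percent called 0), and 0 members were at an unadjusted p under 0.05. DESeq2 called 0 genes in each. Unadjusted, 681, 45 and 447 genes of 12140 were under 0.05 in the TRIM21 line for IgG over PBS, IgG over BSA and BSA over PBS, and 325, 713 and 302 in the WT line. The intervals were within 2-fold for all 10 members in each of these 6 comparisons. Whether the treatment differences differed between the lines was tested as an interaction. The largest interaction value of IgG over PBS was -0.28 for Asns, with -0.15 in the TRIM21 line and 0.13 in the WT line, and the smallest edgeR adjusted p of any member in the 3 interactions was 0.658 (Xbp1, BSA over PBS). Here too 0 members and 0 genes were called by edgeR or DESeq2, with 221, 482 and 790 genes and 0 members at an unadjusted p under 0.05. These intervals were wide, and stayed within 2-fold for 8, 8 and 9 of the 10 members for IgG over PBS, IgG over BSA and BSA over PBS.

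The members varied unequally between samples that received the same treatment. Chac1 had a within-group SD of 0.46 on the log2 CPM scale (12 residual degrees of freedom), above 94.4% of tested genes, and Trib3 had 0.41, above 91.8%. Ddit3 (0.33), Asns (0.31), Ppp1r15a (0.26) and Xbp1 (0.25) followed, and also lay above the median of all tested genes, 0.18. Hspa5 (0.14), Hsp90b1 (0.16) and Herpud1 (0.16) lay below it, and Atf4 at 0.19 was close to it. The samples of Chac1 lay far apart with PBS in the WT line, at 20.7, 42.6 and 15.7 CPM, whereas with BSA in that line they were close together, at 27.6, 27.8 and 27.5 CPM.

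**Figure D3:**
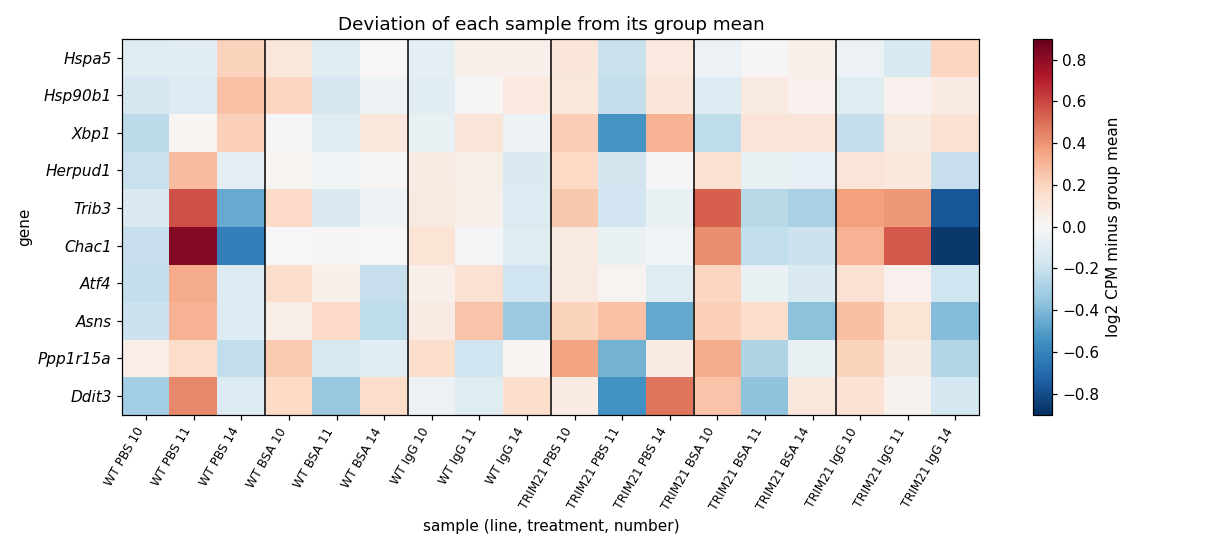
Deviation of each sample from its group mean (colour, log2 CPM) for the 10 genes (rows) in the 18 samples (columns, vertical lines between groups). WT PBS number 11 is high for Trib3, Chac1, Atf4, Asns and Herpud1, and TRIM21 IgG number 14 is low for them. The library that stands apart, TRIM21 PBS number 11, is lowest for Xbp1, Ddit3, Ppp1r15a, Hsp90b1 and Hspa5.

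Several members shared these deviations, though the sharing did not follow the 2 arms throughout. Pearson correlations of within-group deviations are given over 18 samples, as descriptions without a test, and each pair of values comes from the same libraries. The highest of the 45 pairs was Trib3 with Chac1, at r = 0.95 (Spearman's rho 0.92), and r = 0.92 without the 2 samples farthest from the median. Within numbers 10, 11 and 14 it was 0.94, 0.98 and 0.98 (n = 6 each). In WT PBS, for example, Trib3 was at 38.6, 63.2 and 30.8 CPM, in the same order as Chac1. Among 12139 other genes, Trib3 was the gene closest to Chac1, and Chac1 ranked 3 for Trib3. Atf4 with Asns gave r = 0.82 (rho 0.77, and 0.83 without the 2 farthest samples), but within numbers it was 0.86, 0.75 and -0.20, so the relation was not seen in number 14. Over the 15 pairs of the 6 integrated stress response genes, r was above 0 in 14, with a median of 0.60 and a lowest value of -0.20 (Ddit3 with Asns). Within the numbers, 15, 15 and 8 of these 15 pairs were above 0 in numbers 10, 11 and 14, with medians of 0.83, 0.79 and 0.22.

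**Figure D4:**
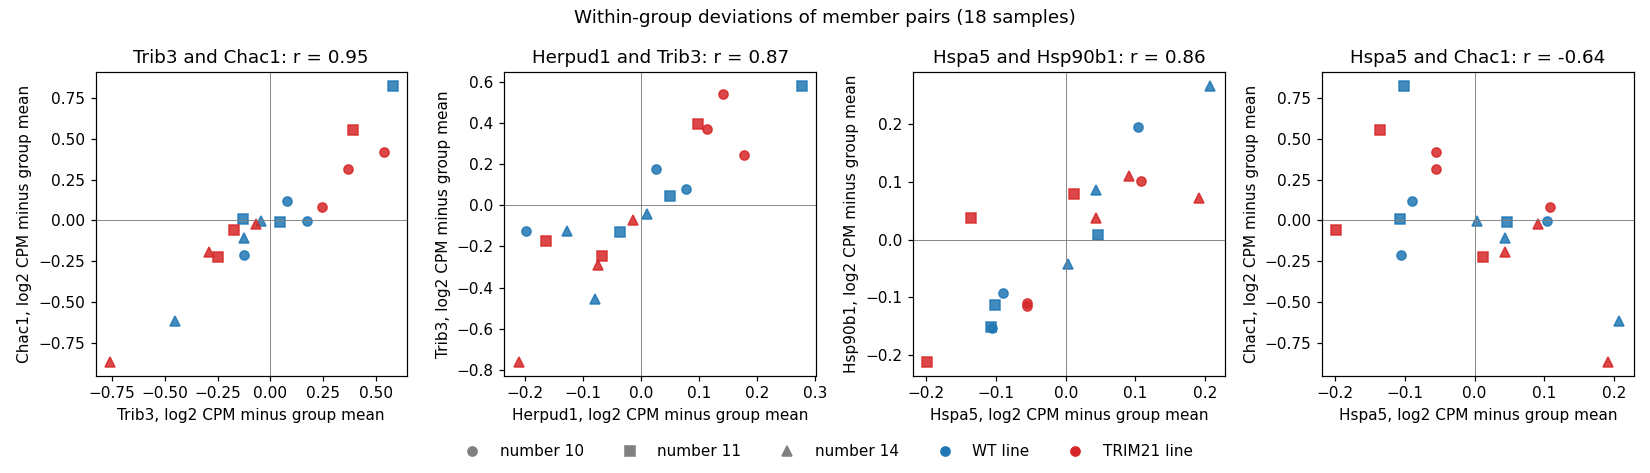
Within-group deviations (log2 CPM minus the group mean, both axes) of 4 pairs of genes, 1 point per sample, with colour for the line and shape for the number. Trib3 with Chac1 (r = 0.95), Herpud1 with Trib3 (0.87) and Hspa5 with Hsp90b1 (0.86) rise together. Hspa5 with Chac1 has r = -0.64, and -0.09, -0.33 and -0.89 within numbers 10, 11 and 14.

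Hspa5, Hsp90b1 and Xbp1 varied with each other. Over all 6 pairs of the 4 ER genes, Herpud1 included, the median r was 0.44 and 2 pairs were below 0. Hspa5 with Hsp90b1 had r = 0.86 (rho 0.85), 0.77 without the 2 farthest samples, and 0.96, 0.70 and 0.77 within the 3 numbers. Hsp90b1 with Xbp1 had r = 0.76 and Hspa5 with Xbp1 r = 0.73, and these fell to 0.38 and 0.43 in number 14. Among 12139 other genes, Hsp90b1 ranked 94 for Hspa5, and Hspa5 ranked 25 for Hsp90b1. Xbp1 ranked 270 for Hsp90b1 and 638 for Hspa5, so many genes outside the members varied with them more closely. Between the 4 ER genes and the 6 integrated stress response genes, 13 of 24 pairs were below 0, with a median r of -0.13. Without Herpud1, set aside after its values were seen, 13 of 18 pairs were below 0, with a median of -0.24. This did not hold within the numbers, where 4, 9 and 12 of the 18 pairs were below 0 in numbers 10, 11 and 14. Hspa5 with Chac1 was the lowest pair, at -0.64, and within the numbers it was -0.09, -0.33 and -0.89.

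Herpud1, counted here among the ER genes, varied with the integrated stress response genes. Its r was above 0.5 with 6 of 6 of them (median 0.75), and with Trib3 it was 0.87 (rho 0.90, and 0.80 without the 2 farthest samples), at 0.80, 0.93 and 0.81 within the 3 numbers. Trib3 ranked 4 among 12139 genes for Herpud1. With Hspa5, Hsp90b1 and Xbp1 the median r of Herpud1 was -0.09, and within the numbers the medians were 0.42, 0.19 and -0.21. In the promoter sequences above, Herpud1 holds a C/EBP-ATF element as Chac1 and Asns do, and an ERSE-II. The r of Herpud1 was 0.87, 0.82 and 0.60 with Trib3, Chac1 and Asns, which held a C/EBP-ATF match in the window. It was 0.80, 0.69 and 0.60 with Atf4, Ppp1r15a and Ddit3, which held none. Within numbers 10, 11 and 14, Herpud1 had 0.85, 0.84 and 0.17 with Atf4, and 0.94, 0.32 and 0.18 with Asns. With Chac1, Ppp1r15a and Ddit3 its r was at least 0.53 in each number. The part of either element in these values was not tested. A measure of the libraries moved with these sets. The mean deviation of the 6 integrated stress response genes had r = -0.60 (rho -0.63) with the share of reads assigned to no gene, which ranged from 13.1% to 18.8%, and -0.44 without the 2 farthest samples. The mean of the 4 ER genes had r = 0.73 (rho 0.44) with the summed fibroblast markers, and 0.45 without the 2 farthest samples. The part of these measures in the shared variation was not tested.

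The wider pathway was read from 5 lists of 113 genes, of which 110 were tested. The mean deviation of the 6 integrated stress response genes was set beside each list, and in all tested genes 7.15% had r above 0.5 (867 of 12130, median 0.01). Of 32 genes for amino acid synthesis and transport and for tRNA charging, most of them known ATF4 targets, 28 had r above 0.5 (87.5%, median 0.70). Pck2, the mitochondrial phosphoenolpyruvate carboxykinase, had 0.98, the seryl-tRNA synthetase gene Sars 0.96, the proline synthesis genes Aldh18a1 and Pycr1 0.94 and 0.93, and Slc3a2, a subunit of amino acid transporters, 0.90. Of 18 transcription and signalling targets of ATF4 and CHOP, 11 had r above 0.5 (61.1%, median 0.68), among them Nupr1 (0.90), Sesn2 (0.84) and Atf5 (0.84), but not Cebpb (-0.16) or Ndrg1 (0.28). The amino acid list includes Mars (0.69), whose exons overlap those of Ddit3. Only group means were removed, so the deviations keep differences between the numbers 10, 11 and 14. For number 14 over 10, edgeR's log2 fold change was -0.50 (Trib3), -0.42 (Asns), -0.40 (Chac1), -0.31 (Ppp1r15a), -0.23 (Atf4) and 0.06 (Ddit3). Values within the numbers are not given for the lists, and the part of the numbers in these correlations was not tested.

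ER genes of the wider lists did not follow that pattern. Of 26 ER chaperones, disulfide isomerases and genes of the secretory machinery, 3 had r above 0.5 with the integrated stress response mean (11.5%), and the median was -0.30. The 3 were Fkbp2 (0.59), Fkbp11 (0.59) and Sec61b (0.54). In the same list 5 of 26 had r below -0.5, beside 873 of 12130 among all tested genes. Of these 5, Dnajc3, an ER co-chaperone also known as an inhibitor of PERK, had -0.85, Pdia4 -0.63 and the chaperone gene Hyou1 -0.59. Of 16 genes for ER-associated degradation, 1 had r above 0.5 (6.25%, median -0.31), and of 18 sensors and regulators 2 had (11.1%, median -0.04). With each sample left out in turn, the count above 0.5 in the amino acid list was 21 to 29 of 32, lowest without TRIM21 IgG number 14, while the share of all genes ran from 4.37% to 11.9%.

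**Figure D5:**
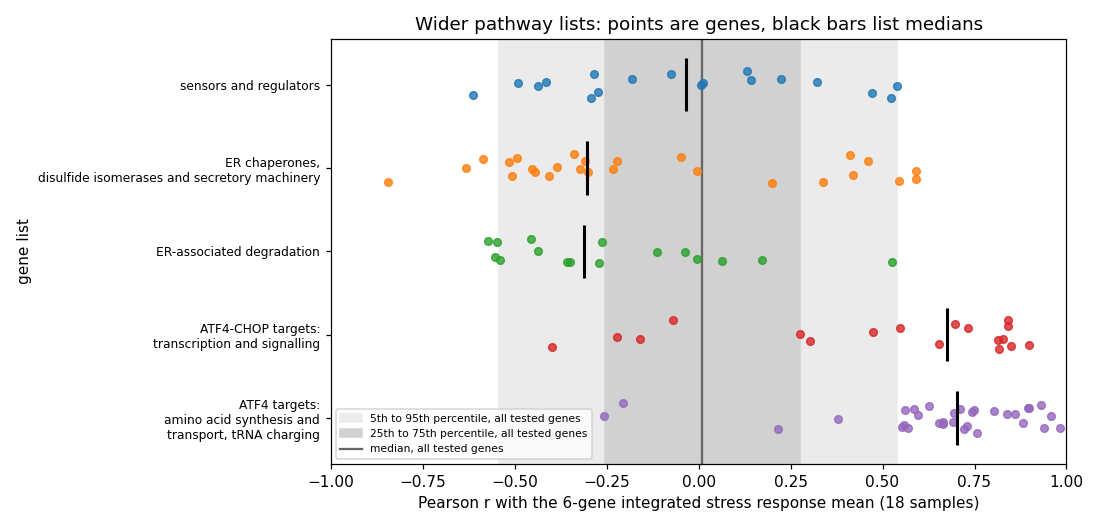
Pearson r (x axis) between each tested gene of the 5 wider lists (points, by list on the y axis) and the mean of the 6 integrated stress response genes, over within-group deviations of 18 samples. Black bars are list medians (0.70 for the amino acid and tRNA list, -0.30 for the ER chaperones). Grey bands are percentiles of all tested genes, whose median is 0.01. Differences between the numbers were not removed.

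Without regard to the lists, the 5 genes whose log2 CPM followed the integrated stress response mean most closely over all 18 samples were Pck2 (r = 0.95), Sars (0.92), Aldh18a1 (0.91), Pycr1 (0.88) and Nupr1 (0.87). All 5 were among the 110 list genes ranked in 12130, and 90% of all genes lay below r = 0.39. For the mean of the 4 ER genes the closest genes included Socs2 (0.95), Glt8d1 (0.95), Idh1 (0.95) and Stx5a (0.94), and 0 of the 5 closest were on a list. There, 90% of genes lay below 0.69. High correlations with the ER mean were thus common: 18.6% of all tested genes had a within-group r above 0.5 with it. The share was 15.4% for the 26 ER chaperones and related genes (4 of 26) and 31.2% for ER-associated degradation (5 of 16). For the transcription and signalling targets it was 27.8%, for the amino acid and tRNA list 12.5%, and for the sensors and regulators 11.1%.

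Between the lines, the wider lists changed little. In edgeR's test, 0 of 110 list genes were higher and 2 were lower in the TRIM21 line (1.82%, beside 6.18% of all genes). Vldlr, a lipoprotein receptor gene listed among the ATF4 targets, fell from 16.5 ± 2.76 CPM in the WT line to 7.29 ± 2.63 CPM in the TRIM21 line (SD, n = 9), without overlap and in 9 of 9 pairs. Its log2 fold change was -1.19 (SE 0.17, edgeR adjusted p = 0.000194), and with each sample left out in turn it was -1.33 to -1.10 and past the threshold in 18 of 18 fits. Selk, an ER membrane selenoprotein gene, had -0.25 (edgeR adjusted p = 0.0433), a call lost in 12 of 18 fits without 1 sample. Near the threshold were Atf3, a stress-induced transcription factor, at -0.48 (edgeR adjusted p = 0.0527), and P4hb, which encodes protein disulfide isomerase, at -0.22 (adjusted p = 0.0619). List medians of the log2 fold change were -0.07 for the ER chaperones, -0.02 for ER-associated degradation, -0.01 for the transcription and signalling targets, 0.06 for the sensors and regulators, and 0.07 for the amino acid and tRNA list, beside 0.01 over all genes. In the 12 treatment and interaction comparisons edgeR called 0 list genes, with 0 to 4 of 110 at an unadjusted p under 0.05.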

How the data were processed

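The authors deposited read counts per gene symbol, 1 table per sample, with no normalization. Per the submitters' processing notes, which give no order or role, the tools were bcl2fastq 2.19.1.403, FastQC 0.11.5, STAR 2.5.1b, HTSeq 0.6.0 and DESeq2 1.6.3, with the build mm10. Per the labels, libraries were strand-specific and polyA-enriched. The closing lines of each table have the names that htseq-count writes, and reads over several genes or aligned to several places lie outside the gene counts. Reads given to no gene were 13.1% to 18.8% of the reads counted to a gene, to none or to several overlapping ones, and stayed out of library sizes. Total gene counts per sample ranged from 19509017 to 29766433, and the least expressed member in any sample had 327 counts.

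Counts were fitted in edgeR 4.0.16 (R 4.3.3) with TMM scaling, filterByExpr defaults (minimum count 10, minimum total 15), 1 mean for each of 6 groups over 18 samples, and glmQLFTest for 13 comparisons, with Benjamini-Hochberg adjustment over 12140 genes and a threshold of 0.05. Standard errors were derived from the F statistic, and intervals are at 95%. Log2 CPM values used a prior count of 2. Correlations used deviations from group means. The 10 genes, the 2 arms and the 5 lists were chosen with earlier results of these data known. Every member is reported, and other genes are named where they are on a list and passed or neared the threshold, ranked among the 5 closest to an arm, or illustrate a list; the last were chosen after their values were seen. One gene that this rule names is not reported here. Positions are from GENCODE vM21 (GRCm38) and promoter sequences from RefSeq (GRCm38.p6). The procedure was tested on simulated counts. Alternatives were DESeq2 size factors, other low-count filters, the number as a block, the DESeq2 1.42.0 Wald test, fits restricted to the groups of a comparison, and fits without each sample in turn.

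Whether the numbers 10, 11 and 14 pair samples was checked with correlations of deviations from group means across genes. The rule that every same-number pair exceed 0.1 was met for IgG against BSA in the WT line (0.23 to 0.40 over 3 pairs), where 0 genes were called with and without the block, and in no other comparison.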

Additional observations from a re-analysis of the deposited data

How the results depend on the processing

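No result changed direction while past the threshold. Of 3250 alternative values for the 10 genes over 13 comparisons, 3243 kept their side of the threshold, 2 lost a call and 5 gained one. Those 2 were Xbp1 between the lines, and those 5 were Hsp90b1 in 4 cases and Ddit3 in 1, all between the lines. In 257 cases an uncalled value changed sign. Of 1625 list medians, 11 moved by more than the spread used as a limit.

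With the number as a replicate block, edgeR called 1462 genes between the lines in place of 750, with 36.0% of them higher in place of 22.5%, and called 2 members, 5 list genes, and 1 gene for IgG over PBS in both lines. With the block and a mean of at least 1 CPM, which was chosen after seeing the data, these were 1302, 2, 5 and 1. With the block and without TRIM21 PBS number 11, also chosen after seeing the data, 1126 genes were called. The block changed no other call of a member. Samples with the same number had a mean correlation of 0.22 over 45 pairs (32 above 0.1). Over 90 pairs with different numbers the mean was -0.11. Deviations within a group sum to 0, so this second mean is largely fixed by the first and adds no separate evidence. Of 18 samples, 16 correlated best with their own number, a hint from the data and not from the design. DESeq2 called 1040 genes between the lines (30.4% higher), 2 members and 4 list genes, and 5 genes for IgG over PBS. Leaving out 1 sample gave 517 genes (without TRIM21 IgG number 10) to 1268 (without TRIM21 PBS number 14), 0 to 3 members and 1 to 5 list genes between the lines. For Xbp1 the log2 fold change ranged from -0.45 to -0.33 and the edgeR adjusted p from 0.00656 to 0.0592. The cause of these differences was not tested. For IgG over PBS in the TRIM21 line, the 95% interval stayed within 1.5-fold for 5 of 10 members and reached 1.86-fold for Chac1, the widest.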

Other observations

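Of the 10 members, Asns differed by the number that the samples carry (10, 11 or 14), whose meaning the labels do not give. This was looked at after the values were seen. Asns had a mean of 390 ± 68.1 CPM in number 10, 416 ± 34.8 CPM in number 11 and 287 ± 11.5 CPM in number 14 (SD, n = 6 each). It was lowest in number 14 in 5 of 6 groups. Atf4 was lowest in number 14 in 5 of 6 groups as well, at 776 ± 72.9, 788 ± 88.6 and 665 ± 35.3 CPM. Xbp1 was highest in number 14 in 5 of 6 groups, at 123 ± 19.5, 130 ± 34.4 and 144 ± 19.3 CPM. Ppp1r15a was highest in number 10 in 5 of 6 groups, at 31.5 ± 2.45 CPM against 25.02 ± 5.01 and 25.3 ± 2.26 CPM. With the number as a term in edgeR's model, Asns passed the threshold (adjusted p = 0.00357). Ppp1r15a (adjusted p = 0.0514), Atf4 (adjusted p = 0.0784), Trib3 (adjusted p = 0.105), Chac1 (adjusted p = 0.178) and Xbp1 (adjusted p = 0.297) did not. In that model 1 of 10 members was called, beside 11.2% of all tested genes.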
